A study of Mus musculus with 12 samples.

Results

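Glycolysis and hypoxia response genes were followed by genotype and region in the mouse cortex at postnatal day 5. The group holds 10 genes, *Hk2*, *Pfkp*, *Aldoa*, *Pgk1*, *Ldha*, *Pdk1*, *Bnip3*, *Ankrd37*, *Egln3* and *Bhlhe40*, taken by symbol from the 55357 genes of the deposited tables. Of these, 43186 were counted in 1 library or more. They matched 11 rows, because *Aldoa* has a second row with 32.5 to 82.5 counts per library. The row with 12340 counts or more was used, and all 10 genes passed the filter on low counts in each comparison. The study sequenced messenger RNA of cortex plus hippocampal formation from 3 animals per genotype, with rostral and caudal cortex kept apart, which gives 12 libraries in 4 groups. The cKO animals (T3, T6 and T80, Nestin-EgfrF/F, genotype tag NcreEGFRFF) have floxed alleles of *Egfr*, the epidermal growth factor receptor. They also have a recombinase driven by Nestin, a promoter active in neural progenitors. The neurons, astrocytes and oligodendrocytes that arise from these progenitors inherit the recombined alleles. The control animals (T4, T8 and T70) are given as EgfrF/+ in the protocol and as WT in the genotype tag. Whether they carry the recombinase is not stated, and where they do not, its presence and the loss of *Egfr* cannot be told apart.

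Glycolysis splits glucose into pyruvate and yields ATP without oxygen, and lactate dehydrogenase turns pyruvate into lactate. When oxygen is short, the hydroxylases that mark the alpha subunit of hypoxia-inducible factor (HIF) for destruction slow down, and HIF then raises transcription of glycolytic enzymes, of a kinase that closes the entry of pyruvate into mitochondria, and of genes for mitochondrial turnover. In the developing brain, neural progenitors are known for high glycolysis, and neurons move towards oxidative metabolism as they mature.

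HIF binds DNA at the core ACGTG or GCGTG. The 250 bases upstream of a RefSeq transcription start (build GRCm38.p6, not the GRCm39 build of the counts) were therefore read for 4 glycolytic members, with each core in capitals on whichever strand it lies (on the opposite strand it reads CACGT or CACGC). *Hk2* and *Pfkp* are shown because they had the highest fold changes of cKO over control on the counts of both regions summed. *Pgk1* and *Ldha* are shown because they had the highest correlation of any pair of members across libraries and both lay below control.
Hk2: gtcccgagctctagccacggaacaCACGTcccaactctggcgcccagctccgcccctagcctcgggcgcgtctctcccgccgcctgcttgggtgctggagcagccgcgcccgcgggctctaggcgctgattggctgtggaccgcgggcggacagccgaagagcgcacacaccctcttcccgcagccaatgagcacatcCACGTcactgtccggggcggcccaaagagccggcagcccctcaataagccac
Pfkp: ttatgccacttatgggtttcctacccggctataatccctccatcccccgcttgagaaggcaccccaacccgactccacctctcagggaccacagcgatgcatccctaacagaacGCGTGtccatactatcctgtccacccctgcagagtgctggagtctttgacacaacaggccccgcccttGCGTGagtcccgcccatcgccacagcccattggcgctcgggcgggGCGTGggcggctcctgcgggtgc
Pgk1: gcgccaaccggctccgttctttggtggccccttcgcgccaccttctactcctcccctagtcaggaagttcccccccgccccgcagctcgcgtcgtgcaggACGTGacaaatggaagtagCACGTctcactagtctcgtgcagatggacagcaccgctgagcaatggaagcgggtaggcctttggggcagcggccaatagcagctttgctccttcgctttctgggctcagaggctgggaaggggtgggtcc
Ldha: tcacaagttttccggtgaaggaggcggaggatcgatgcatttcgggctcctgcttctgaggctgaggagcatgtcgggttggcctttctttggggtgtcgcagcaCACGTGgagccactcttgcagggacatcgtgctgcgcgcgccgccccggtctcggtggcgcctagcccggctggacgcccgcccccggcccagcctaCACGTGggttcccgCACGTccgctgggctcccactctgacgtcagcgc
These lie at chr6:82774455-82774704 on the minus strand for *Hk2*, chr13:6648772-6649021 on the minus strand for *Pfkp*, chrX:106186850-106187099 on the plus strand for *Pgk1* and chr7:46845554-46845803 on the plus strand for *Ldha*, for which RefSeq has a second start that is not shown, whose window held 1 core (GCGTG on the opposite strand). The *Hk2* window held 2 cores and the *Pgk1* window 2, all of them ACGTG. The *Pfkp* window held 3 cores, all of them GCGTG. The *Ldha* window held 5, of which 4 come from 2 copies of CACGTG, a palindrome that reads ACGTG on both strands. Unlike for the other starts shown, the bases just downstream of this *Ldha* start were not found in a GENCODE transcript of the gene, while those of its second start were. RefSeq windows were found for 9 of the 10 members (*Bhlhe40* was not matched), and each of the 9 had a core in at least 1 of its windows. Over all genes with a window, 41.5% of 27025 had a core, and 38.6% of 32851 windows did. The GC content was 69.6% for *Hk2*, 62.8% for *Pfkp*, 62.8% for *Pgk1* and 67.2% for *Ldha*, against a median of 52.4% over all windows. A core in these letters is a description and does not show that the site is bound.

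Library totals ran from 43810458 to 87170315 counts. *Egfr* was at 5.81 to 14.6 CPM (counts relative to the library's total, scaled by TMM) in the 6 cKO libraries and at 39.1 to 48.9 CPM in the 6 control libraries, so every library followed its label (log2 fold change -2.10 on the summed counts, edgeR adjusted p = 0.0019). Several libraries stood apart, most of them cKO. In the rostral one of T6, 8.18% of the counts were on mitochondrially encoded genes, against 1.85% to 3.98% in the other 11. Its markers of astrocytes lay 1.65 and those of meningeal fibroblasts 3.13 below the control rostral mean (mean log2 difference over the list). Those of the oligodendrocyte lineage lay 1.10 and those of microglia 0.83 below it, and those of excitatory neurons 0.57 above. The cKO rostral library of T3 had choroid plexus markers 3.75, meningeal fibroblast markers 1.07 and microglia markers 0.92 above that mean. The cKO rostral library of T80 had meningeal fibroblast markers 1.47 above it and oligodendrocyte lineage markers 0.92 below it. The cKO caudal library of T3 had meningeal fibroblast markers 1.82 and erythroid markers 1.48 below the control caudal mean. That of T6 had choroid plexus markers 1.76 above the control caudal mean. Among the controls, the caudal library of T8 had choroid plexus markers 1.48 below the mean of its own group. Among the cKO animals 1 was female and 2 were male, and among the controls 2 were female and 1 was male, as read from *Xist* and *Ddx3y*. With sex as a covariate, a setting added after the data were seen, edgeR called 0 members by genotype, as without it. Marker transcripts of neurons and glia were present in every library. In bulk tissue, fewer cells of a type and less RNA per cell cannot be told apart.

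The members spanned a wide range of levels. Per kilobase of the gene length in the files, control rostral cortex had 111 ± 6.97 CPM per kb of *Aldoa*, 92.3 ± 2.87 of *Ldha*, 58.4 ± 2.09 of *Pgk1*, 19.8 ± 0.62 of *Bnip3* and 10.2 ± 1.87 of *Bhlhe40* (SD, n = 3). *Pfkp* followed at 7.37 ± 0.39 CPM per kb, *Pdk1* at 6.96 ± 0.43, *Egln3* at 5.40 ± 0.47, *Ankrd37* at 0.91 ± 0.26 and *Hk2* at 0.76 ± 0.12. *Pfkp* with *Pdk1* and *Ankrd37* with *Hk2* did not differ beyond their spread there. This order depends on the lengths, which ran from 1.539 kb for *Ankrd37* to 13.401 kb for *Pfkp*. Without scaling by length, control rostral cortex had more *Pfkp* (98.8 ± 5.16 CPM) than *Bnip3* (44.9 ± 1.40 CPM). The 4 members highest per kilobase kept their order in all 4 groups. In cKO rostral cortex *Pfkp* came next after them, at 9.80 ± 0.67 CPM per kb, ahead of *Pdk1* at 7.42 ± 0.42 and *Bhlhe40* at 7.15 ± 0.78.

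**Figure D1:**
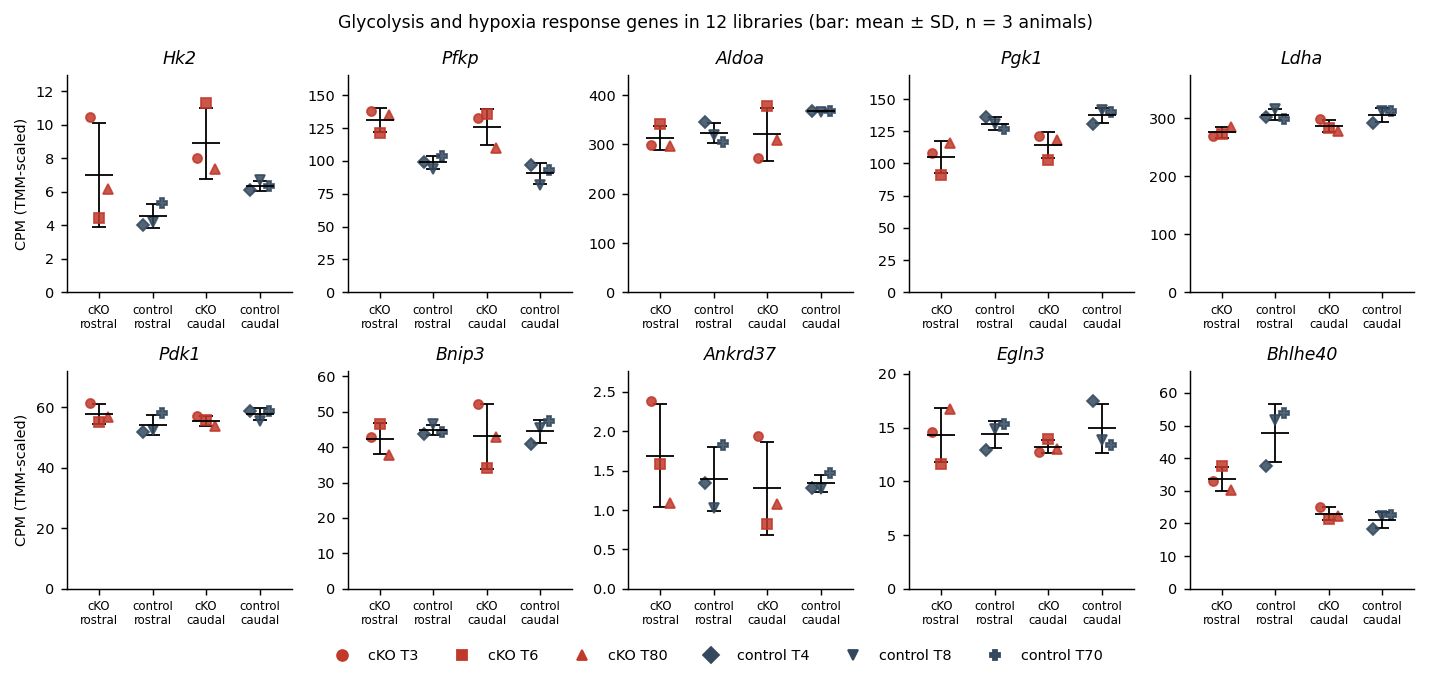
CPM of each of the 10 members by group (vertical axis, TMM-scaled, starting at 0), with 1 point per library, 1 symbol per animal, and the mean ± SD of 3 animals as bars. The *Pfkp* points of cKO (110 to 138 CPM) all lie above those of control (81.7 to 104 CPM), and the *Pgk1* points of cKO (91.4 to 121 CPM) all lie below those of control (127 to 142 CPM).

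Between genotypes, the glycolytic members lay on both sides of control. The means of *Pfkp* and *Hk2* were above control in cKO, and those of *Aldoa*, *Pgk1* and *Ldha* were below it, in both regions. None of the 10 members passed edgeR's quasi-likelihood test with Benjamini-Hochberg adjustment at 0.05 in either region or on the counts of both regions summed per animal. *Egfr* itself, lower in every cKO library, passed only on the summed counts. The same fits called 0% of the 20599 genes tested in rostral cortex, 0.0821% of 20705 in caudal cortex and 0.179% of 22924 on the summed counts. At an unadjusted p under 0.05 there were 3 members in each comparison, against 9.49% of all genes in rostral cortex, 14.5% in caudal cortex and 15.4% on the summed counts. Groups without overlap were found for 4 of the 10 members in rostral cortex, against 19.7% of all genes. They were found for 3 members in caudal cortex, against 22.6%, and for 4 on the summed counts, against 25.9%. The comparisons in the 2 regions use the same animals, and the summed counts hold both.

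*Pfkp* (ENSMUSG00000021196.15, chromosome 13, 6629804 to 6698813, minus strand, GRCm39) encodes the platelet-type phosphofructokinase, 1 of 3 isoforms of the enzyme that commits sugar to glycolysis. Its rostral level was 138, 121 and 135 CPM in cKO T3, T6 and T80, against 99.2, 93.5 and 104 CPM in control T4, T8 and T70. Its caudal level was 132, 135 and 110 CPM in cKO T3, T6 and T80, against 96.6, 81.7 and 93.2 CPM in control T4, T8 and T70. Every cKO library lay above every control library, in both regions and across them. The log2 fold change of cKO over control was 0.42 in rostral cortex (SE 0.09, edgeR adjusted p = 0.330), 0.48 in caudal cortex (SE 0.10, edgeR adjusted p = 0.139) and 0.44 on the summed counts (SE 0.07, edgeR adjusted p = 0.0831). Its call depended on the fit, since DESeq2 called it in rostral cortex (adjusted p = 0.00762, with a range of 0.00762 to 0.863 over 14 alternatives), in caudal cortex (0.00321, range 0.0021 to 0.554) and on the summed counts (0.000147, range 0.000147 to 0.389). Without the T6 animal edgeR called it in rostral cortex (log2 fold change 0.48, adjusted p = 0.0111) and on the summed counts (0.45, adjusted p = 0.0214). *Pitrm1*, which overlaps *Pfkp* on the opposite strand, had 1342 to 2765 counts per library, against 5399 to 10209 for *Pfkp*.

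The share of *Pfkp* in its enzyme family lay above control in each cKO library. Shares were taken of the family's CPM per kilobase of the gene length in the files. These lengths were 13.401 kb for *Pfkp*, 6.675 kb for *Pfkl* and 3.34 kb for *Pfkm*, and the size of a share depends on them. *Pfkp* made up 15.3%, 16.7% and 15.8% in rostral cortex of cKO T3, T6 and T80. In control T4, T8 and T70 it made up 10.004%, 9.71% and 11.1%. Caudally its share was 14.7%, 17.4% and 12.3% in cKO T3, T6 and T80, against 10.4%, 8.82% and 9.78% in control T4, T8 and T70. The shares did not overlap between genotypes in either region, but the smallest two-sided p of an exact permutation test with 3 against 3 animals is 0.1. The liver-type *Pfkl* was at 50.5 ± 11.4 CPM in cKO and 63.9 ± 2.16 CPM in control rostral cortex (SD, n = 3 each). The muscle-type *Pfkm* was at 148 ± 14.9 CPM in cKO and 184 ± 6.26 CPM in control rostral cortex. The higher share of *Pfkp* thus went with a higher mean of *Pfkp* itself and lower means of both other isoforms.

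**Figure D2:**
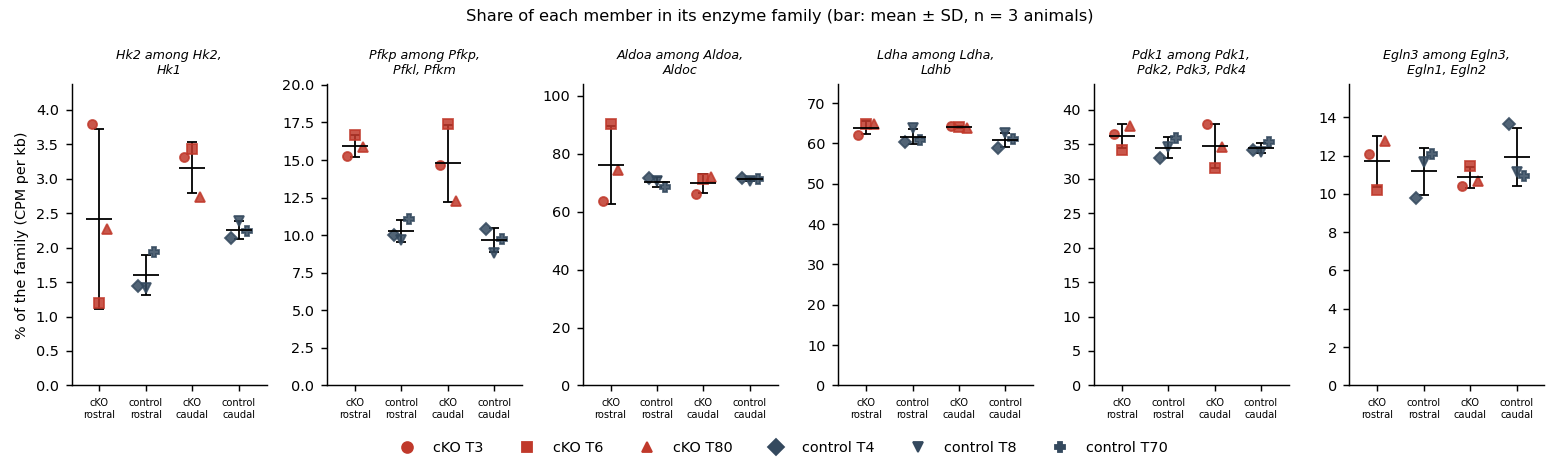
Share of 6 members in their enzyme families (vertical axis, percent of the family's CPM per kb, starting at 0), with 1 point per library and the mean ± SD of 3 animals. *Pfkp* shares lie between 12.3% and 17.4% in cKO and between 8.82% and 11.1% in control, while the shares of *Pdk1* and *Egln3* overlap between genotypes.

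*Hk2* (ENSMUSG00000000628.11, chromosome 6, 82702006 to 82751435, minus strand) encodes a hexokinase, which can sit on the outer mitochondrial membrane and traps glucose in the cell by phosphorylation. Caudal libraries had 8.003, 11.3 and 7.38 CPM in cKO T3, T6 and T80, against 6.08, 6.68 and 6.35 CPM in control T4, T8 and T70. Rostral libraries had 10.5, 4.41 and 6.18 CPM in cKO T3, T6 and T80, against 4.04, 4.21 and 5.35 CPM in control T4, T8 and T70. The caudal groups did not overlap, while in rostral cortex cKO T6 lay inside the control range and the other two cKO libraries above it. As a log2 fold change this was 0.64 in rostral cortex (SE 0.32, edgeR adjusted p = 0.549), 0.49 in caudal cortex (SE 0.17, edgeR adjusted p = 0.270) and 0.53 on the summed counts (SE 0.14, edgeR adjusted p = 0.185). The rostral value rested on single libraries, at 0.23 without cKO T3 and 0.89 without cKO T6, and the caudal value was 0.27 without cKO T6. DESeq2 called *Hk2* on the summed counts (adjusted p = 0.0156, with a range of 0.0156 to 0.524 over the alternatives). *Hk2* was a small part of the hexokinase family, at 2.42% ± 1.31 in cKO and 1.60% ± 0.29 in control rostral cortex and at 3.16% ± 0.37 in cKO and 2.26% ± 0.12 in control caudal cortex (SD, n = 3 each), the rest being *Hk1*.

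The libraries highest in *Hk2* also stood out in other lists. The summed level of 5 choroid plexus markers was 388, 1.11 and 11.01 CPM in cKO rostral T3, T6 and T80, against 4.68, 3.07 and 3.80 CPM in control rostral T4, T8 and T70, and 224, 540 and 155 CPM in cKO caudal T3, T6 and T80, against 181, 8.37 and 213 CPM in control caudal T4, T8 and T70. The highest library of each region, cKO T3 rostrally and cKO T6 caudally, was also the one with most *Hk2*. Among the control caudal libraries it was the other way round. There T8 had the lowest summed level and the most *Hk2*, at 6.68 CPM, against 6.08 CPM in T4 and 6.35 CPM in T70. The summed level of 8 immediate early genes was 197 CPM in cKO caudal T6, against 70.5 and 87.0 CPM in the other two cKO caudal libraries and 75.3 to 90.3 CPM in the control caudal libraries. None of the markers was at 0 in any library, and the part of either list in the *Hk2* values was not tested.

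*Pgk1* (ENSMUSG00000062070.13, chromosome X, 105230706 to 105247305, plus strand) encodes phosphoglycerate kinase, which carries out the first ATP-yielding step. It was measured rostrally at 108, 91.4 and 116 CPM in cKO T3, T6 and T80, against 136, 131 and 127 CPM in control T4, T8 and T70. It was measured caudally at 121, 103 and 118 CPM in cKO T3, T6 and T80, against 131, 142 and 140 CPM in control T4, T8 and T70. Every cKO library lay below every control library, with T6 lowest in both regions. Relative to control, *Pgk1* was at a log2 fold change of -0.31 in rostral cortex (SE 0.11, edgeR adjusted p = 0.471), -0.26 in caudal cortex (SE 0.08, edgeR adjusted p = 0.244) and -0.30 on the summed counts (SE 0.08, edgeR adjusted p = 0.208). Without the T6 animal edgeR called the summed difference (-0.22, adjusted p = 0.0372), as did limma voom with library quality weights (-0.25, adjusted p = 0.0476), and the adjusted p ran from 0.0372 to 0.549 over the alternatives. With sex as a covariate the summed value of this X-linked gene was -0.29 (SE 0.10, edgeR adjusted p = 0.447).

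*Ldha* (ENSMUSG00000063229.16, chromosome 7, 46490899 to 46505051, plus strand) encodes the lactate dehydrogenase subunit that favours lactate formation. Levels in rostral cortex were 269, 272 and 286 CPM in cKO T3, T6 and T80, against 303, 316 and 298 CPM in control T4, T8 and T70. Levels in caudal cortex were 299, 283 and 278 CPM in cKO T3, T6 and T80, against 291, 313 and 313 CPM in control T4, T8 and T70. The groups did not overlap in rostral cortex and overlapped in caudal cortex, where cKO T3 lay above control T4. Relative to control, *Ldha* was at -0.14 on the log2 scale in rostral cortex, -0.09 in caudal cortex and -0.13 on the summed counts (SE 0.06, edgeR adjusted p = 0.326). The mean of *Ldhb*, the other subunit, lay below control as well, and the share of *Ldha* in the pair was 63.9% ± 1.62 in cKO and 61.7% ± 1.92 in control rostral cortex, where the groups overlapped, and 64.1% ± 0.29 in cKO and 60.8% ± 1.80 in control caudal cortex, where they did not (SD, n = 3 each).

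*Aldoa* (ENSMUSG00000030695.17, chromosome 7, 126394406 to 126399923, minus strand) encodes the aldolase that splits fructose bisphosphate. The caudal libraries held 273, 379 and 309.8 CPM in cKO T3, T6 and T80, against 368, 366 and 368 CPM in control T4, T8 and T70. The rostral libraries held 299, 341 and 297 CPM in cKO T3, T6 and T80, against 344, 320.0 and 304 CPM in control T4, T8 and T70. The groups overlapped in both regions, with cKO T6 the highest cKO library in each. Its log2 fold change was -0.19 in caudal cortex (SE 0.11, edgeR adjusted p = 0.462) and -0.04 in rostral cortex (SE 0.10, edgeR adjusted p = 0.873). Without cKO T6 the caudal value was -0.34, and without cKO T3 it was -0.09. *Tlcd3b*, which overlaps *Aldoa* on the opposite strand, had 4473 to 9442 counts, against 12340 to 30911.5 for *Aldoa*.

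**Figure D3:**
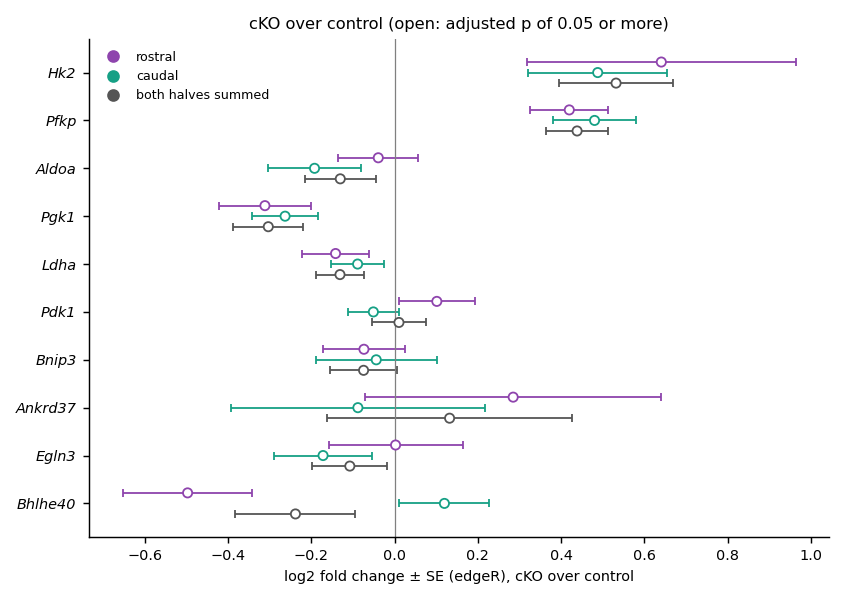
Log2 fold change of cKO over control for the 10 members (horizontal axis, edgeR, ± SE, 3 animals per genotype), for rostral cortex, caudal cortex and both regions summed. *Hk2* and *Pfkp* lie above 0 and *Pgk1* and *Ldha* below 0 in all 3 comparisons, *Bhlhe40* lies at -0.50 in the rostral and 0.12 in the caudal region, and all symbols are open because no adjusted p was under 0.05.

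The members outside glycolysis showed no common direction. *Pdk1* (ENSMUSG00000006494.12, chromosome 2, 71703568 to 71734202, plus strand), the kinase that switches off pyruvate dehydrogenase, was at 55.0 to 61.4 CPM in cKO and 52.0 to 58.0 CPM in control rostral cortex, and at 53.8 to 57.0 CPM in cKO and 55.6 to 58.8 CPM in control caudal cortex. The ranges overlapped, and the log2 fold change was 0.10 in rostral cortex, -0.05 in caudal cortex and 0.01 on the summed counts (SE 0.07, edgeR adjusted p = 0.946). Its share among the 4 pyruvate dehydrogenase kinases was 36.2% ± 1.76 in cKO and 34.5% ± 1.47 in control rostral cortex (SD, n = 3 each).

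*Bnip3* (ENSMUSG00000078566.9, chromosome 7, 138492565 to 138511248, minus strand) encodes a protein of the outer mitochondrial membrane that brings mitochondria to autophagy. It was at 37.9 to 46.5 CPM in cKO and 43.9 to 46.5 CPM in control rostral cortex, and at 34.1 to 52.3 CPM in cKO and 40.8 to 47.3 CPM in control caudal cortex. The caudal cKO libraries lay on both sides of control, with T3 highest and T6 lowest of all 12. On the summed counts its log2 fold change was -0.07 (SE 0.08, edgeR adjusted p = 0.644).

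*Egln3* (ENSMUSG00000035105.6, chromosome 12, 54225767 to 54250646, minus strand) encodes a prolyl hydroxylase that acts on the alpha subunit of HIF and is itself raised by HIF. It was at 11.6 to 16.7 CPM in cKO and 12.9 to 15.3 CPM in control rostral cortex, and at 12.8 to 13.9 CPM in cKO and 13.4 to 17.5 CPM in control caudal cortex. The ranges overlapped in both regions, and the rostral value changed sign under several settings. Its log2 fold change was 0.0021 in rostral cortex (SE 0.16), -0.17 in caudal cortex (SE 0.12) and -0.11 on the summed counts (SE 0.09, edgeR adjusted p = 0.558).

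*Ankrd37* (ENSMUSG00000050914.17, chromosome 8, 46449939 to 46458744, minus strand), an ankyrin repeat gene that HIF is known to raise, had only 56 to 177 counts per library. It was at 2.39, 1.59 and 1.09 CPM in cKO rostral T3, T6 and T80, against 1.34, 1.02 and 1.83 CPM in control rostral T4, T8 and T70. Caudal cortex had 1.95, 0.82 and 1.07 CPM in cKO T3, T6 and T80, against 1.29, 1.27 and 1.47 CPM in control T4, T8 and T70. The cKO T3 libraries were the highest of each region, and the other cKO libraries lay among or below the controls. As log2 fold changes these were 0.28 in rostral cortex and -0.09 in caudal cortex, and 0.13 on the summed counts (SE 0.29, edgeR adjusted p = 0.833). It was -0.26 on the summed counts without cKO T3. *Ufsp2*, on the opposite strand, had 1283 to 2405 counts, and without a known strand setting the reads of the overlap cannot be told apart.

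*Bhlhe40* (ENSMUSG00000030103.12, chromosome 6, 108637590 to 108643886, plus strand) encodes a transcriptional repressor that acts in the circadian clock and is raised by hypoxia. Rostral cortex had 32.9, 37.6 and 30.4 CPM in cKO T3, T6 and T80, against 37.7, 51.8 and 53.8 CPM in control T4, T8 and T70. Caudal cortex had 25.2, 21.3 and 22.3 CPM in cKO T3, T6 and T80, against 18.4, 22.4 and 22.7 CPM in control T4, T8 and T70. The rostral groups met without overlapping, since cKO T6 lay just below control T4, and the caudal groups overlapped. *Bhlhe40* was thus at a log2 fold change of -0.50 in rostral cortex (SE 0.16, edgeR adjusted p = 0.430) and 0.12 in caudal cortex (SE 0.11, edgeR adjusted p = 0.645). The difference between these values was 0.62 (SE 0.20, unadjusted p = 0.00983), which did not pass in the interaction test over all genes (edgeR adjusted p = 0.9997).

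The other enzymes of the pathway had log2 fold changes below 0 in nearly every case, and none passed the test. Of 12 further glycolytic enzymes, 11 had a log2 fold change below 0 and 1 above it in rostral cortex, where 55.6% of all genes lay above 0. In caudal cortex 12 were below 0 and 0 above, with 50.9% of all genes above, and on the summed counts 11 were below and 1 above, with 53% of all genes above. edgeR called 0 of the 12 each time. At an unadjusted p under 0.05, 3 were lower in rostral cortex, 6 in caudal cortex and 7 on the summed counts, against 3.98%, 6.86% and 7.15% of all genes. Their median was -0.19 in rostral cortex, -0.17 in caudal cortex and -0.20 on the summed counts, beside medians of 0.04, 0.0045 and 0.02 over all genes. *Pfkp* and *Hk2* thus stood on the other side of 0 from most of the pathway, as the plot of differences by library shows.

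**Figure D4:**
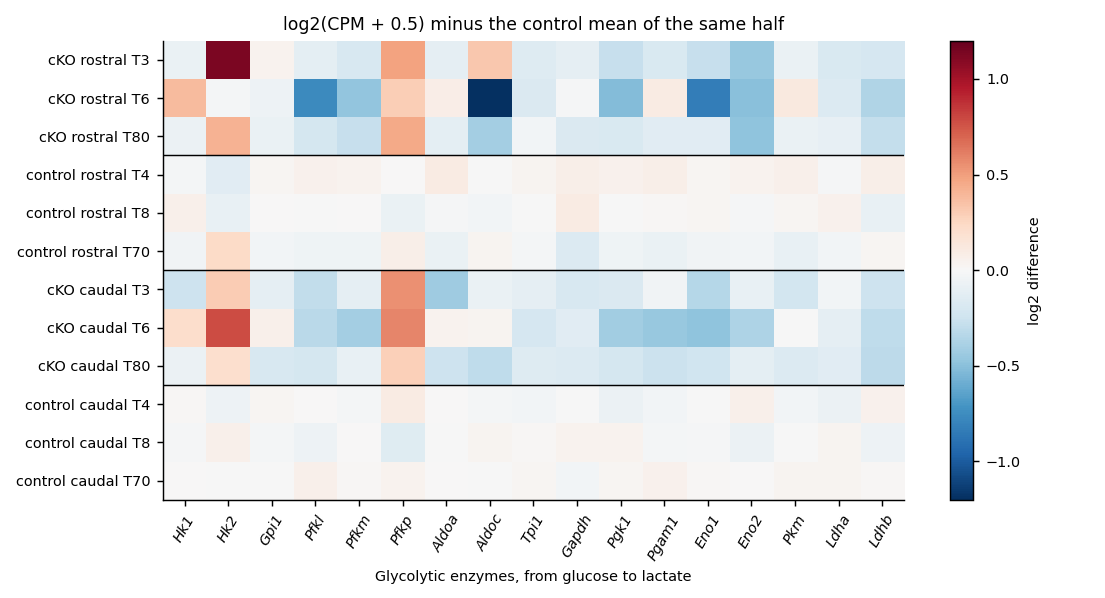
Difference between each library and the mean of the controls in its region (colour, log2 of CPM + 0.5) for 17 glycolytic enzymes in the order of the pathway, with the 3 cKO libraries of a region above its 3 control libraries. The *Pfkp* column is positive in all 6 cKO libraries. The *Pfkl*, *Pfkm*, *Tpi1*, *Gapdh*, *Pgk1*, *Eno1*, *Eno2*, *Ldha* and *Ldhb* columns are negative in all 6. *Aldoc* in cKO rostral T6 lies at -1.90, past the end of the colour scale.

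Among these enzymes the neuronal enolase *Eno2* was at 139, 134 and 136 CPM in cKO rostral T3, T6 and T80, against 196, 188 and 186 CPM in control rostral T4, T8 and T70. The rostral groups were far apart for their spread. In caudal cortex *Eno2* was at 148, 121 and 145 CPM in cKO T3, T6 and T80, against 164, 149.6 and 158 CPM in control T4, T8 and T70, closer together but again without overlap. The log2 fold change was -0.47 in rostral cortex (SE 0.08, edgeR adjusted p = 0.266), -0.19 in caudal cortex (SE 0.09, edgeR adjusted p = 0.374) and -0.34 on the summed counts (SE 0.07, edgeR adjusted p = 0.121). DESeq2 called *Eno2* in rostral cortex and on the summed counts. *Ldhb* was at 73.8 ± 4.05 CPM in cKO and 90.0 ± 4.81 CPM in control rostral cortex and at 76.2 ± 1.86 CPM in cKO and 93.3 ± 3.72 CPM in control caudal cortex (SD, n = 3 each). Its log2 fold change was -0.28 in rostral cortex, -0.29 in caudal cortex and -0.30 on the summed counts (SE 0.07, edgeR adjusted p = 0.15). *Eno1*, the enolase of most cell types, had a log2 fold change of -0.38 in rostral cortex, -0.35 in caudal cortex and -0.37 on the summed counts (SE 0.12, edgeR adjusted p = 0.239). *Aldoc*, the aldolase typical of astrocytes, ran from 40.7 to 192 CPM in cKO rostral cortex, against 150 to 157 CPM in control rostral cortex, with its lowest value in T6.

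Marker levels of glia differed between cKO and control libraries beside these enzymes. Of 8 markers of the oligodendrocyte lineage, 7 were below 0 in each region. edgeR called 0 of the 8 lower in rostral cortex and 1 in caudal cortex. On the summed counts it called *Olig1* and *Olig2* lower (log2 fold change -0.90, adjusted p = 0.0115, and -0.59, adjusted p = 0.0381). The summed level of the 8 markers was 301 to 459 CPM in cKO and 562 to 594 CPM in control rostral cortex, and 355 to 421 CPM in cKO and 472 to 532 CPM in control caudal cortex. Of 8 astrocyte markers, 7 were below 0 in rostral cortex and 6 in caudal cortex, with summed levels of 896 to 2356 CPM in cKO and 2079 to 2356 CPM in control rostral cortex, and 2043 to 2739 CPM in cKO and 2335 to 2711 CPM in control caudal cortex. These summed astrocyte levels overlapped in both regions, and edgeR called no astrocyte marker. *Slc1a2* at 879 CPM and *Slc1a3* at 597 CPM made up most of the sum in control rostral cortex. At an unadjusted p under 0.05, 3 markers were lower in rostral and 4 in caudal cortex, and 0 higher, against 3.98% and 6.86% of all genes lower. *Aldh1l1* was at 23.5 to 58.7 CPM in cKO and 90.7 to 99.8 CPM in control rostral cortex. In caudal cortex it was at 40.7 to 51.4 CPM in cKO and 74.5 to 85.7 CPM in control. Of 7 microglia markers, 5 were above 0 in each region, with summed levels of 53.0 to 194 CPM in cKO and 76.3 to 106 CPM in control rostral cortex, and 119 to 130 CPM in cKO and 90.6 to 125 CPM in control caudal cortex, and edgeR called none of them. No marker of these lists was at 0 in any library. Their part in the values of the glycolytic genes was not tested.

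Genes around the pathway gave few differences by genotype, and edgeR called 0 genes of the 6 further lists in any of the 3 genotype comparisons. Among 10 genes of pyruvate entry, *Pdk4*, another kinase of pyruvate dehydrogenase, was at 4.89 ± 1.21 CPM in cKO and 8.31 ± 0.71 CPM in control rostral cortex (SD, n = 3 each; log2 fold change -0.75, SE 0.21, edgeR adjusted p = 0.409). In caudal cortex it was at 5.82 ± 1.30 CPM in cKO and 6.43 ± 0.46 CPM in control, with overlap (log2 fold change -0.14). DESeq2 called *Pdk4* in rostral cortex and on the summed counts, as did limma voom with library quality weights and edgeR without cKO T6. The mitochondrial pyruvate carrier *Mpc2* had a log2 fold change of -0.32 in rostral and -0.35 in caudal cortex. Among 9 genes of the HIF pathway itself, *Hif3a*, an alpha subunit that can act as an inhibitor, had a log2 fold change of 0.76 in rostral cortex, 0.49 in caudal cortex and 0.64 on the summed counts (SE 0.22, edgeR adjusted p = 0.264), and limma voom with quality weights and edgeR without cKO T6 called it in rostral cortex and on the summed counts. *Vhl*, which binds the hydroxylated alpha subunit, had one of -0.20 in rostral cortex, -0.22 in caudal cortex and -0.22 on the summed counts (SE 0.07, edgeR adjusted p = 0.256). *Hif1a* itself, named for its role after its values were seen, was at 140 ± 18.4 CPM in cKO and 142 ± 2.94 CPM in control rostral cortex.

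Other known targets of HIF were divided. Of 16, 11 lay above 0 and 5 below in rostral cortex, 9 above and 7 below in caudal cortex, and 8 on each side on the summed counts, with a median of 0.02 there, beside 0.02 over all genes. The histone demethylase *Kdm3a* had a log2 fold change of 0.25 (SE 0.09, edgeR adjusted p = 0.270) and the transcriptional repressor *Mxi1* one of 0.28 (SE 0.09, edgeR adjusted p = 0.259) on the summed counts. *Higd1a*, a protein of the inner mitochondrial membrane, had one of -0.39 (SE 0.13, edgeR adjusted p = 0.265). The glucose transporter *Slc2a1* was at 36.5 ± 11.6 CPM in cKO and 34.2 ± 1.34 CPM in control rostral cortex, and *Slc16a1*, which carries lactate, was at 97.7 ± 45.8 CPM in cKO and 128 ± 12.3 CPM in control rostral cortex. Rostrally the cKO and control ranges overlapped for both transporters. In caudal cortex *Slc16a1* was at 102 to 120 CPM in cKO and 127 to 134 CPM in control, without overlap (log2 fold change -0.25, SE 0.07, edgeR adjusted p = 0.237).

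Caudal and rostral cortex of the control animals differed in 3 members. Caudal cortex had more *Hk2* and *Aldoa* and less *Bhlhe40* than rostral cortex, and these 3 of 10 members passed edgeR's test, against 12.2% of 20461 genes. *Bhlhe40* was at 18.4, 22.4 and 22.7 CPM in caudal cortex and at 37.7, 51.8 and 53.8 CPM in rostral cortex of control T4, T8 and T70, so rostral cortex was higher in each animal and the groups were far apart. Its log2 fold change of caudal over rostral was -1.18 (SE 0.15, edgeR adjusted p = 0.00403). *Hk2* was at 6.08, 6.68 and 6.35 CPM in caudal cortex and 4.04, 4.21 and 5.35 CPM in rostral cortex of T4, T8 and T70, a log2 fold change of 0.49 (SE 0.12, edgeR adjusted p = 0.0251). *Aldoa* was at 366 to 368 CPM in caudal cortex and 304 to 344 CPM in rostral cortex, a log2 fold change of 0.19 (SE 0.05, edgeR adjusted p = 0.0426). The groups did not overlap for these 3 members, against 31.4% of all genes. Without control T8 no member passed (edgeR adjusted p = 0.236 for *Hk2*, 0.272 for *Aldoa* and 0.0637 for *Bhlhe40*), without T4 *Hk2* did not pass (0.119) and without T70 *Aldoa* did not pass (0.227). Over 11 alternatives the adjusted p ran from 0.0013 to 0.598 for *Hk2*, from 0.00822 to 0.637 for *Aldoa* and from 7.75e-19 to 0.0637 for *Bhlhe40*. In 1 fit over all 12 libraries only *Bhlhe40* passed (edgeR adjusted p = 0.0101), and 78 of all genes did, against 2492 in the fit on controls alone.

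In the cKO animals no member passed between the regions, and edgeR called 0 of the 20944 genes tested there (1.66% had an unadjusted p under 0.05). By DESeq2, 4 genes passed there, none of them a member. *Bhlhe40* was at 25.2, 21.3 and 22.3 CPM in caudal cortex and 32.9, 37.6 and 30.4 CPM in rostral cortex of cKO T3, T6 and T80. Again rostral cortex was higher in each animal and the groups did not overlap, which held for 1 of the 10 members and for 5.76% of all genes, with a log2 fold change of -0.56 (SE 0.13, unadjusted p = 0.00315, edgeR adjusted p = 0.9999). *Hk2* had a log2 fold change of 0.35 (SE 0.34), with caudal above rostral in T6 and T80 and below it in T3, and of -0.11 without T6. That of *Aldoa* was 0.04 (SE 0.15) in cKO, against 0.19 (SE 0.05) in control. Whether the regional differences differ between genotypes was tested as an interaction on all 12 libraries, where edgeR called 0 of 21599 genes, 3.55% at an unadjusted p under 0.05, and none of the members. DESeq2 called 11 genes by the interaction and limma voom with library quality weights 137, again with no member. The regional comparisons use the same libraries as the genotype comparisons.

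**Figure D5:**
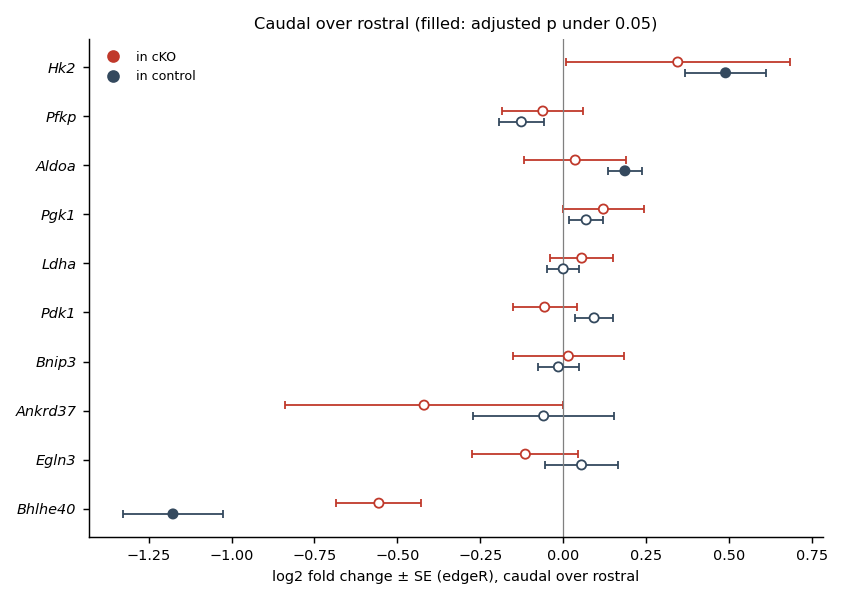
Log2 fold change of the caudal over the rostral region for the 10 members (horizontal axis, edgeR, ± SE, 3 animals), in cKO and in control; filled symbols passed an adjusted p of 0.05. The filled symbols are *Hk2* at 0.49, *Aldoa* at 0.19 and *Bhlhe40* at -1.18, all in control, and *Bhlhe40* lies at -0.56 in cKO.

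The related lists also differed between the regions of control cortex. Of 16 further HIF targets, edgeR called 4 higher in caudal cortex, the adenylate kinase *Ak4* (log2 fold change 0.66), the stress-response gene *Ddit4* (0.42), *Ndrg1* (0.33) and the glycolytic regulator *Pfkfb4* (0.28), against 6.3% of all genes, and 1 lower, the collagen prolyl hydroxylase subunit *P4ha1* (-0.24), against 5.88%. Of the 12 other glycolytic enzymes only *Eno2* passed, lower at -0.27. The neuronal glucose transporter *Slc2a3* was higher at 0.30 and the monocarboxylate transporter *Slc16a7* lower at -0.46. *Pdk2* was higher at 0.29 and *Pdk4* lower at -0.37. Of 10 clock genes, edgeR called 1, *Cry1*, a repressor of the clock like *Bhlhe40*, lower at -0.36. These genes were named after their values were seen. *Ak4*, *Ddit4* and *Slc16a7* passed whichever control animal was left out, while *Pfkfb4*, *P4ha1* and *Slc2a3* did not pass without T4, these and *Eno2*, *Pdk2*, *Pdk4* and *Cry1* did not without T8, and *Ndrg1*, *P4ha1*, *Pdk2* and *Pdk4* did not without T70. In the fit over all 12 libraries none of them passed. Cell type markers differed between the regions as well. Of 5 choroid plexus markers, all were above 0 and 2 called higher, with summed levels of 8.37 to 213 CPM in caudal cortex and 3.07 to 4.68 CPM in rostral cortex of control. Of 8 oligodendrocyte lineage markers, all were below 0 and 4 called lower, with 472 to 532 CPM in caudal cortex and 562 to 594 CPM in rostral cortex. Of 8 astrocyte markers, 2 were called higher and 1 lower, with 2335 to 2711 CPM in caudal cortex and 2079 to 2356 CPM in rostral cortex. Of 6 meningeal fibroblast markers, all were above 0 and none called, with 357 to 439 CPM in caudal cortex and 133 to 311 CPM in rostral cortex. Of 7 excitatory neuron markers, 2 were called higher and 2 lower, and of 6 interneuron markers, 1 was called higher and 2 lower. Of 7 endothelial markers 1 was called lower, as was 1 of 6 markers of pericytes and smooth muscle. The part of these lists in the regional values was not tested.

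The members did not vary as 1 block across the 12 libraries. Correlations of log2 CPM between pairs of members ran from -0.78 for *Pfkp* with *Pgk1* to 0.85 for *Pgk1* with *Ldha* (Pearson, 12 libraries from 6 animals, where 2 libraries of an animal share their source and 6 a genotype, so no p is given). *Pfkp* with *Ldha* gave -0.75 and *Hk2* with *Pfkp* 0.54. Against the mean of the 10 members, each centred on its own mean, the most alike of 13721 genes were *Mettl27* (0.94), *Rpsa-ps10* (0.85), *Rffl* (0.84), *Nudt12* (0.81) and *Rfx5* (0.80). That mean ran from -0.09 to 0.15 over the cKO libraries and from -0.05 to 0.10 over the control libraries on the log2 scale, so it moved little and the groups overlapped.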

How the data were processed

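Messenger RNA was captured from 700 ng of total RNA per sample and read as paired ends of 50 bases, per the labels' protocols. Per the submitters' processing notes, STAR 2.7.8a, featureCounts 2.0.3 and the genome build GRCm39 were used. Not given in the sources used here: which gene annotation was counted, whether by strand, and how multiply aligned reads were treated. The values deposited by the authors are expected counts per gene: fractional values made up 9.69% to 14.3% per library, and they were rounded to whole numbers before testing, where whole counts had been planned for.

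Each comparison was fitted in R 4.3.3 with edgeR 4.0.16 on the libraries of its own groups (filterByExpr, TMM scaling, robust quasi-likelihood F test, Benjamini-Hochberg adjustment over all genes tested, threshold 0.05). The standard error is the size of the log2 fold change divided by the square root of F. CPM were scaled over all 12 libraries by TMM, and log2 levels used 0.5 CPM as a pseudocount. The region and interaction fits had no animal block. The 2 regions of an animal share its T number in the titles, and the deviations of its 2 libraries from their group means correlated, across 16030 genes, at -0.03 (T3), -0.01 (T6) and 0.60 (T80) in cKO and at 0.42 (T4), 0.45 (T8) and 0.47 (T70) in control. Replicates are separate animals. DESeq2 1.42.0 and limma 3.58.1 were alternatives, with other scaling, filters, single animals left out, mitochondrially encoded genes removed and, added after the data were seen, sex as a covariate and a count of further glycolytic enzymes. The main edgeR fits, other than that of the interaction, were tested on simulated counts. The fold changes put in were larger than that of any member by genotype, and the alternatives were not tested in this way.

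The members and the 7 pathway and 11 cell type lists were chosen with earlier results of these data known. Named genes are the members, *Egfr*, up to 4 genes per pathway list and genotype comparison with the smallest p, and the 5 genes most like the mean of the members; isoforms of the members and genes overlapping them were named besides. Where a symbol has several rows, that with most counts was used. *Bmal1* of the clock list was not matched by symbol.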

Additional observations from a re-analysis of the deposited data

How the results depend on the processing

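Counts of members called by genotype moved with the test, while the 3 calls between the regions of control were the same number by DESeq2 and voom, and no setting called a member between the regions of cKO or in the interaction. By genotype in rostral cortex edgeR called 0, while DESeq2, limma voom with library quality weights (below, voom) and edgeR without cKO T6 called 1 each, *Pfkp*, and leaving out each animal in turn gave 0 to 1. In caudal cortex edgeR called 0, and DESeq2 and the fit with no filter on low counts 1 each, *Pfkp*. On the summed counts edgeR called 0, DESeq2 2 (*Hk2* and *Pfkp*), voom 2 (*Pfkp* and *Pgk1*), no filter 1, limma voom with duplicateCorrelation 1, and leaving out single animals 0 to 2. Between the regions of control, 3 calls became 0 to 2 with single animals left out and 1 in a fit over all 12 libraries. The cause was not tested. RLE scaling, a filter of 1 CPM in 3 libraries and removal of mitochondrially encoded genes changed none of these counts. Sex as a covariate was fitted for the genotype comparisons only and did not change their counts.

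Over all genes, the genotype fit in rostral cortex called 0 by edgeR, 394 by DESeq2, 920 by voom, 45 with no filter, 101 in a fit over 12 libraries, and 0 to 1058 with single animals left out (most without cKO T6). In caudal cortex these were 17, 519, 178, 326, 1 and 0 to 162, with 2 under sex as a covariate. On the summed counts edgeR called 41, DESeq2 804, voom 632, no filter 320, duplicateCorrelation 101, sex as a covariate 1, and leaving out animals 1 to 685. Between the regions of control, 2492 became 78 in a fit over 12 libraries and 1079 to 1690 with animals left out. In the interaction 0 became 11 by DESeq2, 137 by voom, 2 with no filter and 0 to 475 with animals left out.

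With the animal as a replicate block, the values between the regions of control were 0.50 for *Hk2* (adjusted p = 0.0126), 0.19 for *Aldoa* and -1.16 for *Bhlhe40*, and the block changed no call of a member in either genotype or in the interaction.

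Some values changed sign, and the cause was not tested. By genotype in rostral cortex, *Egln3* (0.0021) was -0.0027 by DESeq2, -0.0024 with RLE scaling, -0.0072 with no filter, -0.0073 in the fit over 12 libraries and -0.0092 with sex as a covariate. By region in cKO, voom gave -0.041 for *Hk2*, against 0.35 by edgeR. By region in control, *Ldha* was 0.0073 by voom, 0.0056 with no filter and 0.0032 with the filter of 1 CPM, and voom gave 0.0019 for *Bnip3* and 0.081 for *Ankrd37*. In the interaction voom gave -0.079 for *Pfkp*. With single animals left out, the genotype values ran in rostral cortex from -0.10 to 0.0073 for *Aldoa*, -0.058 to 0.52 for *Ankrd37* and -0.13 to 0.13 for *Egln3*, in caudal cortex from -0.21 to 0.089 for *Bnip3* and -0.50 to 0.14 for *Ankrd37*, and on the summed counts from -0.031 to 0.037 for *Pdk1* and -0.26 to 0.32 for *Ankrd37*. The region values in cKO ran from -0.11 to 0.83 for *Hk2*, -0.17 to 0.049 for *Pfkp*, -0.032 to 0.12 for *Aldoa*, -0.13 to 0.24 for *Bnip3* and -0.28 to 0.025 for *Egln3*. In control they ran from -0.035 to 0.022 for *Ldha*, -0.069 to 0.023 for *Bnip3*, -0.21 to 0.12 for *Ankrd37* and -0.15 to 0.17 for *Egln3*. The interaction ran from -0.60 to 0.34 for *Hk2*, -0.042 to 0.17 for *Pfkp*, -0.011 to 0.10 for *Pgk1*, -0.11 to 0.25 for *Bnip3* and -0.33 to 0.032 for *Egln3*. *Ankrd37* had the fewest counts of the members, 56 to 177 per library.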

Other observations

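Immediate early genes, which neurons switch on within minutes of activity, lay above control in cKO without passing the test. Of 8, 7 had a log2 fold change above 0 in rostral cortex and 8 in caudal cortex and on the summed counts, where their median was 0.46 beside 0.02 over all genes, and edgeR called 0 of them. On the summed counts the log2 fold change was 1.82 for *Fosb* (edgeR adjusted p = 0.258) and 0.75 for *Fos* (edgeR adjusted p = 0.303). Their summed level was 85.4 to 124 CPM in cKO and 72.4 to 89.8 CPM in control rostral cortex, with the highest value in T80, and 70.5 to 197 CPM in cKO and 75.3 to 90.3 CPM in control caudal cortex, with the highest in T6, so single libraries of different animals stood out in the 2 regions.

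Of 10 clock genes, 3 lay above 0 and 7 below on the summed counts, and edgeR called 0. *Dbp*, an output gene of the clock, had a log2 fold change of -0.85 in rostral cortex and -0.56 on the summed counts (edgeR adjusted p = 0.296), and *Per2*, a repressor of the clock, had one of 0.47 in caudal cortex (edgeR adjusted p = 0.317).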
